A study of Mus musculus with 6 samples.

Results

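The core circadian clock genes were examined in gastrocnemius and plantaris muscles of mice that carried the C26 tumor, a transplantable mouse colon carcinoma. The 10 members were taken by name and form 2 arms, the activators Arntl (also called Bmal1), Clock and Npas2 and the repressors Per1, Per2, Per3, Cry1, Cry2, Nr1d1 and Nr1d2. Each had a probe set of its own, so that 10 of the 21212 probe sets of the array are described. Male CDF1 mice, 8 weeks old when bought and kept under 12 h light and 12 h dark, received either C26 cells in PBS/matrigel under the skin of both flanks or PBS/matrigel alone. Muscles of 3 control and 4 C26 mice were taken 25 days later, and each RNA pool combined 2 to 3 muscles of the same group. There were 3 pools of control muscle, numbered 1, 2 and 3, and 3 of C26 muscle, numbered 1, 3 and 4. Pools of a group may share a mouse, so p-values measure only the spread between pools. The labels and methods do not state the hour of harvest, and at a single time point a change in the level of a rhythmic gene and a shift in its phase cannot be told apart.

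The clock runs inside each cell as a loop of transcription. BMAL1, paired with CLOCK or its paralog NPAS2, binds E-box elements and switches on the Per and Cry genes, whose proteins return to the nucleus and inhibit the same activators. The nuclear receptors REV-ERBα and REV-ERBβ, encoded by Nr1d1 and Nr1d2, are also driven through E-boxes and repress Arntl, at elements where ROR receptors activate it. Transcripts of the arms therefore peak at different times of the day, and in skeletal muscle the loop sets the timing of genes of fuel use and of myogenic factors.

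Expression was measured as log2 RMA values, 1 value per gene and array, in which a difference of 1 is a doubling. Array medians lay between 4.935 and 5.023, and arrays correlated at 0.9944 to 0.9962 within groups and 0.9757 to 0.9809 between groups. The means of all 10 members lay above 3.82, the level under which 95% of 1259 olfactory and vomeronasal receptor probe sets fell, in both groups. The skeletal muscle fiber markers Acta1 and Ckm were at 12.99 or higher and at 12.68 or higher in every pool (log2 value). Control replicate 3 stood apart from the other control pools for clock genes, by a median of 0.405 in size over the 10 members against 0.104 over all probe sets, so results that rest on it are also given without it. Markers of other cells moved with the tumor too. Of 8 neutrophil markers 6 rose, their mean going from 3.28 to 3.37 in control pools to 4.64 to 4.89 in C26 pools. Of 7 macrophage markers 4 rose (6.18 to 6.26 against 6.92 to 6.98), 3 of 3 fat cell markers fell (5.18 to 5.47 against 4.27 to 4.54) and 3 of 6 tendon markers fell (7.38 to 7.49 against 5.79 to 5.83). Of the other lists, 2 of 14 muscle fiber markers fell (12.08 to 12.12 against 11.73 to 11.82), as did 2 of 6 fibroblast and 1 of 6 endothelial markers. Over all probe sets 10.9% rose or fell, and the shares of fiber (14.3%) and endothelial markers (16.7%) lay near that. By limma 0 of 4 lymphocyte markers passed, with or without the fold minimum. No list had a marker at 0, but the neutrophil marker Ly6g stayed at 2.54 or lower in every pool. Clock genes are expressed in most cell types, and the part of these cells in the results was not tested. Fewer cells of a type and less RNA per cell cannot be told apart in whole muscle.

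Promoter sequence bears on the members because they are wired to one another through short elements. RefSeq windows of GRCm38.p6 (the reference strain, not CDF1) were found for 9 of the 10 members (13 windows), and none for Per2. The 250 bases before each annotated start were searched on both strands for the E-box CACGTG, the E-box-like CACGTT, the D-box TTANNTAA, which the output factors DBP, HLF and NFIL3 share, and the ROR and REV-ERB half-site AGGTCA. No searched motif overlapped another in the windows printed. CACGTG was found in Per1 and Cry1 and in 6.02% of all 32851 windows, CACGTT in Cry1, Cry2 and Nr1d1 (3.85% of windows), TTANNTAA in Per3 (5.43%) and AGGTCA in Clock, Per1 and Nr1d2 (14.0% of windows). These shares are of windows and not of genes, and Clock and Per1 also had windows without any of the motifs. The windows of Arntl and Npas2 held none of them. Only 250 bases before each start were searched, so elements elsewhere, those of Arntl included, would be missed. Per3 held 2 D-boxes, which 0.444% of windows did. The Per1 and Per3 windows and the Cry2 and Cry1 windows are shown because these genes differed most in their change within the Period and the cryptochrome family, with the matches in capitals. A match is a description of the letters and not a binding site.
Per1, chr11:69098699-69098948, plus strand, CACGTG starting 166 bases and AGGTCA (reverse strand) 137 bases before the start: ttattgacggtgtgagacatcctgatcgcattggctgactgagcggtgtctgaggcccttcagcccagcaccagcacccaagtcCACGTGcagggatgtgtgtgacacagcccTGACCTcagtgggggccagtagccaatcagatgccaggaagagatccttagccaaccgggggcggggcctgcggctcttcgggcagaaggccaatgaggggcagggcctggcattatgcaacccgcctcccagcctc
Per3, chr4:151044666-151044915, minus strand, TTANNTAA starting 205 and 158 bases before the start: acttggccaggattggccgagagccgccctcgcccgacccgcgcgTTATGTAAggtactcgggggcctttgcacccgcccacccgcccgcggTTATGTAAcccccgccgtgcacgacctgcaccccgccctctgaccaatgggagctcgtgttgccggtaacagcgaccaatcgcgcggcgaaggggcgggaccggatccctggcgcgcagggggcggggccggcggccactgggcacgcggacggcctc
Cry2, chr2:92434070-92434319, minus strand, CACGTT (reverse strand) starting 166 bases before the start: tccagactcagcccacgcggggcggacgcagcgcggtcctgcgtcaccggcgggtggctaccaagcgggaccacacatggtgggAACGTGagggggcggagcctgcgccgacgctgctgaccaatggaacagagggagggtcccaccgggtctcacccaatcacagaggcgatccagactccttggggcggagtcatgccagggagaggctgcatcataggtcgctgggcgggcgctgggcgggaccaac
Cry1, chr10:85185055-85185304, minus strand, CACGTT (reverse strand) starting 79 bases and CACGTG 60 bases before the start: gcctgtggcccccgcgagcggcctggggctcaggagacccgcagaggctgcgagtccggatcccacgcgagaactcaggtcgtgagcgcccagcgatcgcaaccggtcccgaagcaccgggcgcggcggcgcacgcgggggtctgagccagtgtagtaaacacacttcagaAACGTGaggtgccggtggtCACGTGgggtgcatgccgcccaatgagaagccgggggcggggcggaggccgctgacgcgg

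C26 muscle had higher levels of 4 clock genes and lower levels of 2. Cry2, Arntl, Npas2 and Per1 rose, Per3 and Nr1d1 fell, and Clock, Per2, Cry1 and Nr1d2 did not pass. The verbs rose and fell are kept for genes with an adjusted p from limma of 0.05 or less (Benjamini-Hochberg over all 21212 probe sets) that also differed by 1.5-fold or more. The 6 genes of 10 compare with 10.9% of all probe sets, of which 5.94% rose and 4.95% fell. Without the fold minimum 6 members passed as well, against 30.1% of all probe sets. Without control replicate 3, 5 members rose and 2 fell, where 11.2% of all probe sets passed. For 8 of the 10 members the highest pool of the lower group lay below the lowest pool of the other, against 43.9% of all probe sets. The members had a median log2 fold change of 0.36 and all probe sets one of −0.05.

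**Figure D1:**
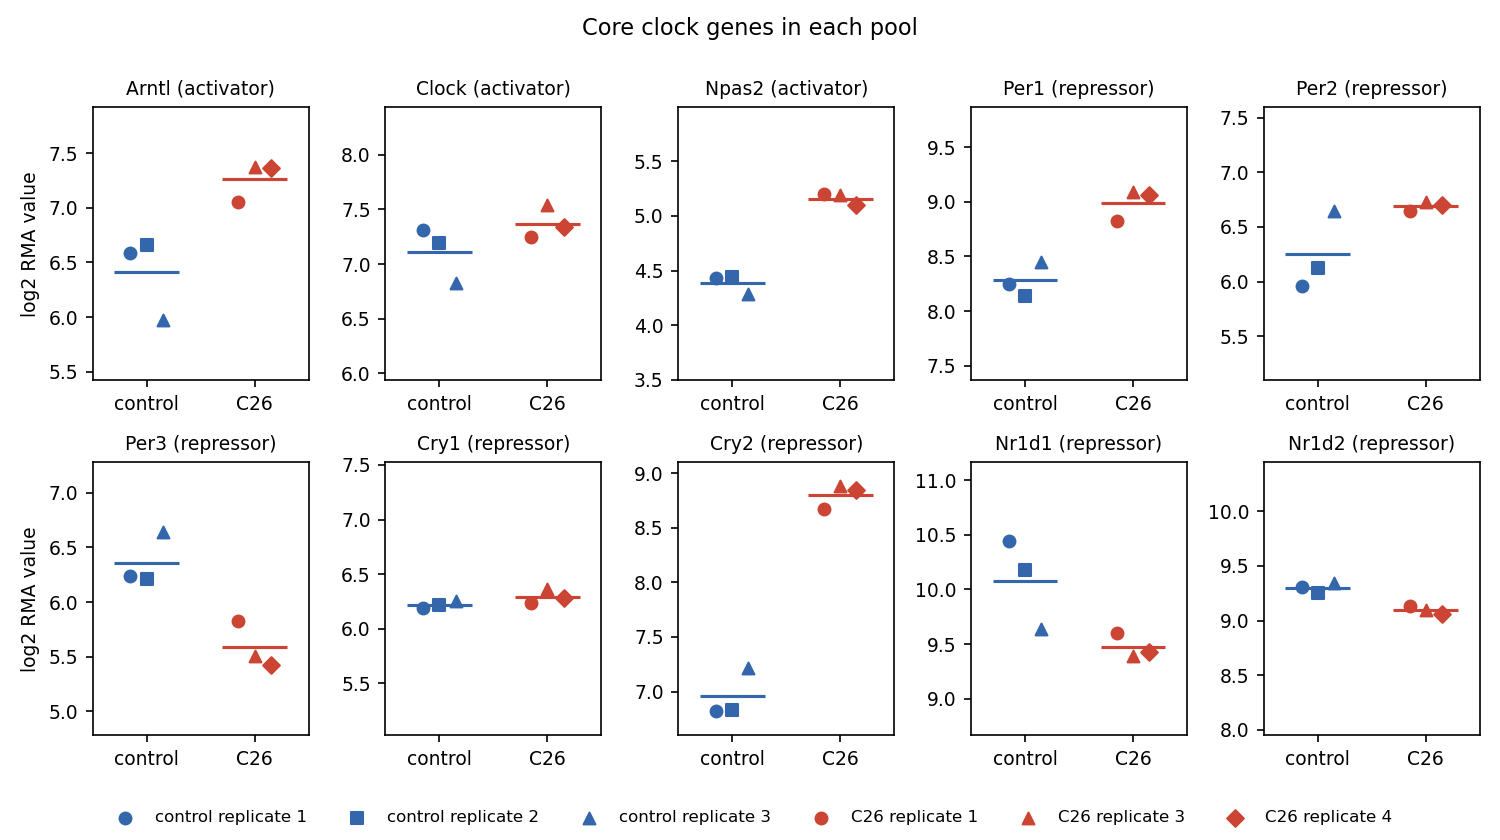
Log2 RMA value (vertical axis, each panel spanning the same 2.5 units) of the 10 core clock genes in the control pools (3, blue) and C26 pools (3, red). Lines are group means and symbols are replicate numbers. The C26 pools of Cry2 lie at 8.67 or higher and its control pools at 7.22 or lower, and control replicate 3 (blue triangle) lies apart from the other control pools for Arntl, Clock, Per2, Per3, Cry2 and Nr1d1.

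Among the activators, Arntl and Npas2 rose and Clock did not pass. Arntl, the activator without which the loop stops, measured 6.59, 6.66 and 5.97 in control replicates 1, 2 and 3 and 7.05, 7.37 and 7.36 in C26 replicates 1, 3 and 4. Every C26 pool lay above every control pool, and control replicate 3 was the lowest of the 6. Arntl rose by 0.86 (SE 0.18, limma adjusted p = 0.00725), or 1.81-fold. Without control replicate 3 the difference was 0.64 (SE 0.12, adjusted p = 0.00664 from limma). The methods' t-test gave Arntl an adjusted p of 0.086, so that call was lost under it. Npas2, the paralog that can stand in for CLOCK, was at 4.43, 4.44 and 4.29 in the control pools and 5.20, 5.19 and 5.10 in the C26 pools. Its groups were far apart relative to their spread (SD 0.08 and 0.05), and it rose by 0.78 (SE 0.08, adjusted p = 0.000159 from limma). For Clock, the main partner of BMAL1, control values of 7.31, 7.19 and 6.83 stood against 7.25, 7.54 and 7.34 in C26 muscle. These ranges overlapped, and the difference of 0.27 had a 95% interval of −0.04 to 0.57 (adjusted p = 0.179 from limma). It was 0.12 without control replicate 3, the lowest Clock value, and 0.18 without C26 replicate 3, the highest.

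The Period genes, which encode scaffold proteins of the inhibitory complex, did not move as a family. Per1, which also responds to glucocorticoids and cAMP, was at 8.25, 8.14 and 8.45 in control pools and 8.82, 9.09 and 9.06 in C26 pools. The groups were 0.37 apart at their nearest values, and Per1 rose by 0.71 (SE 0.11, adjusted p = 0.00148 from limma). Per3, the member with the least role in keeping the rhythm, went the other way, with 6.24, 6.21 and 6.64 in control pools and 5.83, 5.51 and 5.42 in C26 pools. It fell by 0.78 (SE 0.14, adjusted p = 0.00391 from limma) and by 0.64 without control replicate 3, its highest value, while the methods' t-test gave an adjusted p of 0.059. The D-box letters printed above for Per3 were not in the Per1 windows, and Per2 had no window to search. A link of these letters to the change was not tested. Per2, which is needed for a stable rhythm, measured 5.96, 6.12 and 6.65 in control pools and 6.65, 6.73 and 6.70 in C26 pools. Control replicate 3 reached the C26 pools to within 2 decimals, while replicates 1 and 2 lay below all of them. The Per2 difference of 0.45 (SE 0.16) did not pass (adjusted p = 0.0646 from limma), but it was 0.65 (SE 0.09, adjusted p = 0.00186) without control replicate 3, where it passed.

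**Figure D2:**
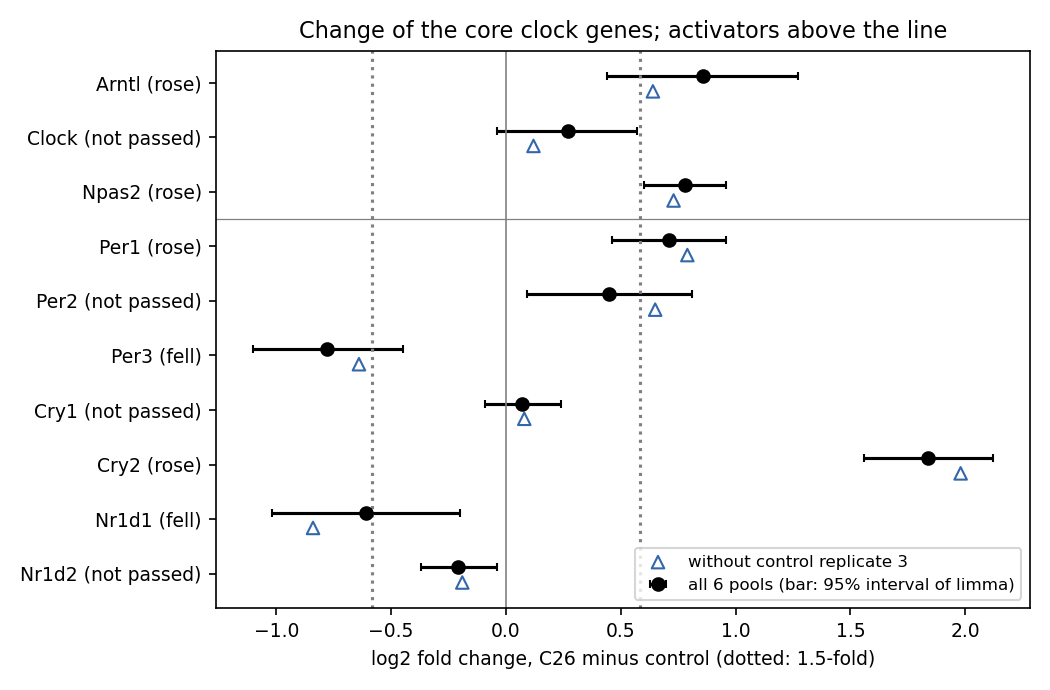
Log2 fold change of C26 against control muscle (horizontal axis) for each clock gene from all 6 pools (black, with the 95% interval of limma) and without control replicate 3 (blue triangles), activators above the line and repressors below. Cry2 has the largest change at 1.84, and leaving out control replicate 3 takes Per2 from 0.45 to 0.65, past the dotted 1.5-fold line.

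The cryptochromes, the direct inhibitors of the BMAL1 complex, were split, with a rise of Cry2 and no call for Cry1. Cry2 was at 6.82, 6.83 and 7.22 in control pools and 8.67, 8.88 and 8.85 in C26 pools. The lowest C26 pool lay 1.45 above the highest control pool, the widest gap of any member. Cry2 rose by 1.84 (SE 0.12, adjusted p = 2e-05 from limma), or 3.59-fold, and by 1.98 without control replicate 3. Cry1, which delays the clock by a late phase of its own, measured 6.19, 6.22 and 6.25 in control pools and 6.24, 6.36 and 6.28 in C26 pools. Its ranges overlapped, and its difference of 0.07 had a 95% interval of −0.09 to 0.24 (adjusted p = 0.514 from limma), all of it under 1.5-fold. The E-box and E-box-like letters shown above stand in the window of Cry1, and the E-box-like letters in that of Cry2.

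Both REV-ERB genes had lower means in C26 muscle, but Nr1d1 alone passed, and by a narrow margin. Nr1d1, the repressor of Arntl with the wider daily swing, was at 10.44, 10.18 and 9.64 in control pools and 9.60, 9.39 and 9.43 in C26 pools. All C26 pools lay below all control pools, but control replicate 3 was only 0.04 above the highest of them. Nr1d1 fell by 0.61 (SE 0.18, adjusted p = 0.0326 from limma), and by 0.84 (SE 0.11, adjusted p = 0.00155) without control replicate 3. The call was lost in 9 of 16 alternatives, among them the methods' t-test (adjusted p = 0.17) and leaving out any C26 pool or control replicate 1 or 2 (adjusted p of 0.0535 to 0.102 from limma). Nr1d2 was steady within groups, at 9.31, 9.25 and 9.34 in control pools and 9.13, 9.10 and 9.06 in C26 pools. Its groups did not overlap, yet the difference of −0.21 (95% interval −0.37 to −0.04) did not pass (adjusted p = 0.0604 from limma).

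Set side by side, 2 of 3 activators rose and none fell, whereas 2 of 7 repressors rose and 2 fell. Of all probe sets 5.94% rose and 4.95% fell. Activators had a median log2 fold change of 0.78 and repressors one of 0.07. The mean over each arm was nonetheless higher in every C26 pool than in every control pool. It was 6.5 to 6.7 against 5.7 to 6.11 for activators and 7.83 to 7.86 against 7.57 to 7.74 for repressors. No test over the arms was made. Ratios within an array, which a shift of a whole array cannot change, were compared for 10 pairs of members by exact two-sided permutation tests over the 6 pools. With 3 pools against 3 such an exact permutation test cannot go below p = 0.1, and no pair passed after Benjamini-Hochberg adjustment over the 10 pairs. The log2 ratio of Arntl to its repressor Nr1d1 was −3.85, −3.52 and −3.67 in control pools and −2.55, −2.01 and −2.07 in C26 pools. It was higher by 1.47 (SE 0.19, exact permutation p = 0.1, adjusted 0.143), and control replicate 3, low for both genes, lay between the other control pools. The ratio of Cry2 to Cry1 went from 0.74 ± 0.21 to 2.51 ± 0.07 (mean ± SD, 3 pools each), and that of Per1 to Per3 from 1.92 ± 0.10 to 3.40 ± 0.36. Both of these also reached p = 0.1 by the exact permutation test, the smallest it can give. The ratios of the groups overlapped for Per1 over Per2 (difference 0.26, SE 0.16), Nr1d1 over Nr1d2 (−0.41, SE 0.25) and Arntl over Npas2 (0.08, SE 0.21). These differences rested on single pools. Without control replicate 3 they were 0.14, −0.65 and −0.09, so that the last had no settled sign, and without control replicate 1 they were 0.39, −0.24 and 0.15.

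**Figure D3:**
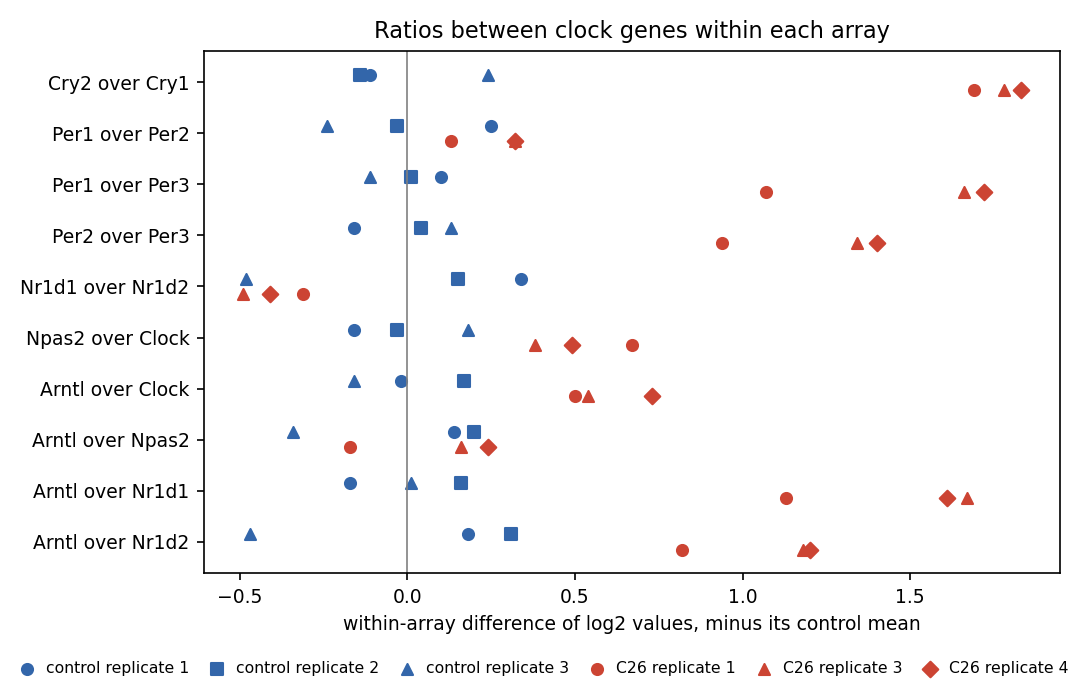
Difference of the log2 values of 2 clock genes within each array (horizontal axis), minus the control mean of that pair, for 10 pairs in 3 control pools (blue) and 3 C26 pools (red). The widest separation of the groups is that of Cry2 over Cry1, and the groups overlap for Per1 over Per2, Nr1d1 over Nr1d2 and Arntl over Npas2.

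The clock genes varied more among control pools than among C26 pools. The SD was larger in control than in C26 pools for 9 of 10 members, Cry1 being the exception, against 48.3% of all probe sets. The median SD over the members was 0.234 in control and 0.112 in C26 pools, where all probe sets had 0.101 and 0.104. Whether this differs between the groups was not tested. Most of the control spread came with replicate 3. Its distance from the mean of replicates 1 and 2 was −0.66 for Arntl, −0.42 for Clock and −0.67 for Nr1d1, but 0.61 for Per2, 0.41 for Per3, 0.40 for Cry2 and 0.25 for Per1. In size, 6 of the 10 distances were above the 95th percentile of all probe sets in that pool, compared with 2 for replicate 1, 1 for replicate 2 and 0 for each C26 pool. Arntl and Clock were thus low in this pool while the Period genes and Cry2 were high. It lay toward the C26 pools for 5 members (Per1, Per2, Cry1, Cry2 and Nr1d1) and away from them for 5 (Arntl, Clock, Npas2, Per3 and Nr1d2). Among C26 pools, replicate 1 was closest to the control mean for 9 of the 10 members, all but Npas2. For how many of all probe sets this holds was not counted, so it cannot be read as particular to the clock genes.

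**Figure D4:**
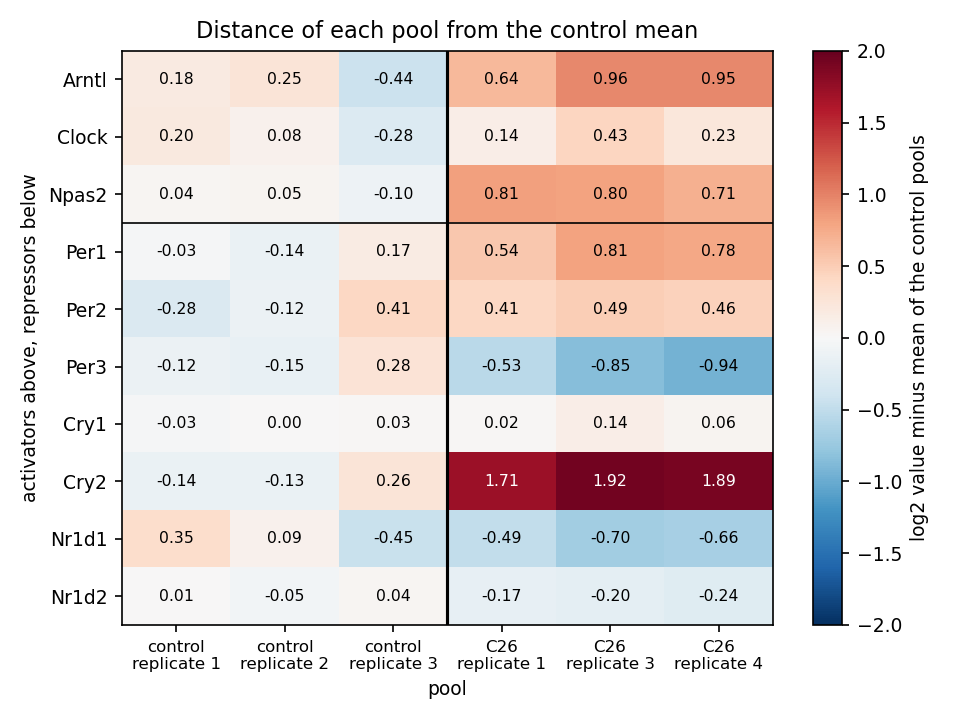
Log2 value of each clock gene in each pool minus the mean of the 3 control pools (color and printed number), with activators above the horizontal line, repressors below, and C26 pools to the right of the vertical line. Control replicate 3 is below the control mean for the 3 activators and Nr1d1 and above it for the other repressors, while the C26 pools share 1 sign for each gene.

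Other genes of the pathway were taken from lists written from general knowledge, of which 61 of 67 genes were measured. Of these 16 rose, 7 fell and 38 did not pass, so that 37.7% were called against 10.9% of all probe sets. Rora, an activator of Arntl that shares its elements with the REV-ERB proteins, was at 8.29, 8.15 and 8.38 in control pools and 9.92, 9.87 and 9.95 in C26 pools. It rose by 1.64 (SE 0.08, adjusted p = 6.02e-06 from limma), whereas the group means of Rorb (3.48 and 3.44) and Arntl2 (3.71 and 3.68) lay below the background level of 3.82. Of 17 enzymes that act on clock proteins, 4 rose and 1 fell, with a median log2 fold change of 0.22. The rises were in Gsk3b, a kinase of several clock proteins (0.84, SE 0.07), Fbxw11, a ligase subunit that marks PER proteins for degradation (0.82, SE 0.09), Sirt1, a deacetylase (0.81, SE 0.09), and Csnk2a2, a casein kinase subunit (0.59, SE 0.08). Usp2, a rhythmic deubiquitinase, fell by 0.77 (SE 0.09). Of 13 cofactors (median 0.24), 15.4% were called, near the 10.9% of all probe sets. Ciart, which represses the BMAL1 complex, and Wdr5, a chromatin adaptor found with PER proteins, rose by 0.88 (SE 0.20) and 0.63 (SE 0.10). Adjusted p-values of these 7 genes were at most 0.00978 from limma. Without control replicate 3 or C26 replicate 3, and with quantile or loess scaling, Csnk2a2 no longer passed, Wdr5 did not without control replicate 1 or C26 replicate 3, and Ciart did not by the methods' t-test.

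The output factors carry the rhythm to other genes, and 3 of these 6 fell while 1 rose (median −0.69). Dbp, a D-box activator driven by BMAL1, was at 8.16, 7.58 and 7.96 in control pools and 6.28, 5.35 and 5.62 in C26 pools, and it fell by 2.15 (SE 0.23, adjusted p = 0.000228 from limma). Hlf, of the same family, and Bhlhe41, a repressor that competes at E-boxes, fell by 1.06 (SE 0.09) and 1.72 (SE 0.12). Nfil3, which represses through D-boxes, rose by 1.58 (SE 0.10), from 7.69 ± 0.09 to 9.27 ± 0.14. Tef (−0.04, SE 0.08) and Bhlhe40 (−0.31, SE 0.11) did not pass.

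Of 11 genes known to follow the clock in muscle or elsewhere, 2 rose and 4 fell (median 0.18). Besides Ciart and Usp2, which stand on 2 lists, Pdk4, the kinase that shuts off pyruvate oxidation, rose by 1.35 (SE 0.19). Myod1, the myogenic factor under clock control, fell by 1.53 (SE 0.15), Hk2, a hexokinase, by 0.81 (SE 0.08), and Wee1, a cell cycle kinase, by 0.67 (SE 0.14). Wee1 no longer passed without control replicate 3 or by the methods' t-test. A further list joined genes through which signals reach the clock with known targets of glucocorticoids. Its 14 measured genes included 7 that rose and 7 that did not pass (median 0.67). These counts and this median are therefore not of clock inputs alone. The largest rises were in Fkbp5 (2.63, SE 0.08), Klf15 (1.92, SE 0.09) and Sik1 (1.78, SE 0.14), the last of them a kinase that restrains cAMP signaling to Per1 and the others known targets of glucocorticoids. Next came Atf4, the stress response factor (0.92, SE 0.08), Crtc2, a coactivator of CREB (0.74, SE 0.11), and Klf9, another glucocorticoid target (0.68, SE 0.08). The glucocorticoid receptor gene Nr3c1 itself did not pass, because its change of −0.35 (SE 0.08, adjusted p = 0.00952 from limma) was under 1.5-fold.

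**Figure D5:**
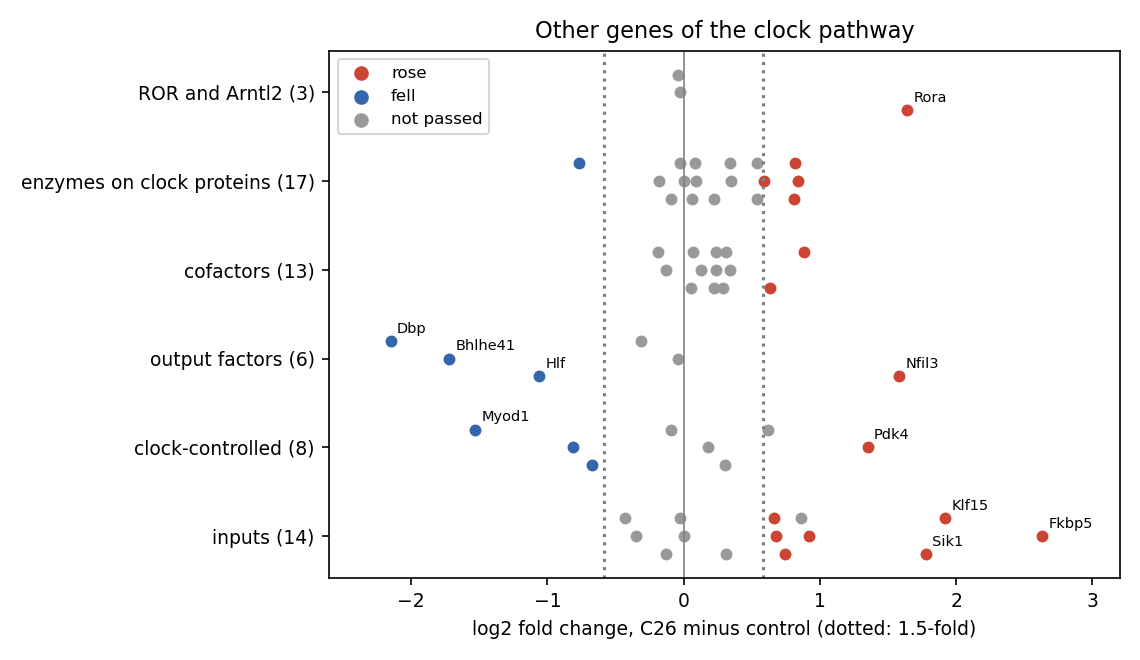
Log2 fold change of C26 against control muscle (horizontal axis) for 61 other genes of the clock pathway, grouped by role with the number of genes drawn in parentheses (a gene on 2 lists is drawn once), colored by whether it rose, fell or did not pass. The widest changes are Dbp at −2.15 and Fkbp5 at 2.63, and genes that changed by more than 1 are named.

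By the profile over the 6 pools relative to the control mean, the named genes most like Arntl were Cd300lf (root mean square difference 0.121), Klhl30 (0.126) and Fmnl2 (0.126) out of 18772 compared. Those most like Cry2 were Sik1 (0.0812), Ctps2 (0.0955) and Klf15 (0.104). Their log2 fold changes were 0.86 (SE 0.12), 0.86 (SE 0.12) and 0.91 (SE 0.11) for the genes like Arntl and 1.78 (SE 0.14), 1.81 (SE 0.12) and 1.92 (SE 0.09) for those like Cry2, and no test was made of this likeness.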

How the data were processed

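RNA of 3 control and 3 C26 pools, with RNA integrity numbers of at least 8.0, was hybridized to 6 Affymetrix Mouse Gene 1.0 ST arrays. The deposited log2 values were made by the authors with RMA in GenePattern and the Brainarray custom CDF, version 13, which gives 1 probe set per gene; RMA corrects background, normalizes by quantiles and summarizes probes, so arrays are on a common scale. The genome build of the CDF was not given in the sources used here. The table was used without further normalization. Of 21212 probe sets, 18782 carry 1 symbol that no other shares, 2420 are unnamed, 6 carry several symbols and 4 share one. The number of arrays limits the precision.

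Groups were compared with limma 3.58.1 (functions lmFit and eBayes, prior degrees of freedom 4.523) in R 4.3.3. P-values were two-sided and adjusted by Benjamini-Hochberg over the whole array, and calls needed 1.5-fold and an adjusted p of 0.05 or less. Intervals cover 95%. The scripts were tested on simulated data. Within-array ratios were tested by exact permutation in Python 3.11.15 with SciPy 1.17.1. The methods' t-test, named there without saying whether variances were pooled, was taken with equal variances. The members, the gene lists and the pairs were chosen with earlier results of these data known. All 10 members are named, with genes past the thresholds (at most 6 by size) of each pathway list, all output factors, and the 3 genes nearest in profile to Arntl and to the member with the largest change. Arntl2, Rorb, Nr3c1, Ucp3, Ppara and Ppargc1a were named after their values were seen, as were the markers Acta1, Ckm and Ly6g. Alternatives were other tests, scalings, variance models and thresholds, a filter on dim probe sets, a replicate block, and leaving out arrays. Promoter sequences came from RefSeq (GRCm38.p6).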

Additional observations from a re-analysis of the deposited data

How the results depend on the processing

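None of the 10 clock genes changed sign under the 16 alternatives run at the same thresholds, and Npas2, Per1 and Cry2 kept their calls in all of them. The other tests, the variance models and the filter on dim probe sets leave the fold change as it is. A sign could therefore change only with other scalings, the replicate block or arrays left out. The cause of the changes listed here was not tested. By the methods' t-test 0 clock genes fell, where 2 fell with limma. At an unadjusted p under 0.05 in that t-test 2 were lower, Per3 and Nr1d2. Its adjusted p was 0.086 for Arntl (0.86), 0.059 for Per3 (−0.78) and 0.17 for Nr1d1 (−0.61). For Nr1d2 it was 0.0214, but the change of −0.21 was under 1.5-fold. By a test with unequal variances 0 fell (2 were lower at an unadjusted p under 0.05, again Per3 and Nr1d2). Its adjusted p-values were 0.143 for Arntl, 0.0786 for Per3, 0.263 for Nr1d1 and 0.041 for Nr1d2. Of all probe sets 760 rose and 621 fell by this test. With arrays centred on their medians 1 clock gene fell, since Nr1d1 changed by −0.55 (adjusted p = 0.0503 from limma), and of all probe sets 1534 rose and 839 fell against 1261 and 1049 as deposited. At 2-fold or more 1 clock gene rose and 0 fell, as did 6 and 4 of the other pathway genes and 432 and 307 of all probe sets. Without a fold minimum 25 other pathway genes and 3041 of all probe sets rose, and 3344 of all fell.

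The titles share the replicate numbers 1 and 3 between the groups. Deviations of same-numbered arrays from their group means correlated at −0.06083 and −0.05717, and those of other arrays at −0.02521 to 0.07147. These correlations cannot decide whether the numbers pair the pools, because deviations from the mean of a small group are tied to one another. With the replicate number as a block 1 clock gene fell (Nr1d1, at −0.54 with an adjusted p of 0.0586 from limma, was lost), and 1235 of all probe sets rose and 1069 fell. Pools whose number occurs in 1 group only are taken up by the block, so every difference of this fit rested on replicates 1 and 3 alone. Leaving out each array in turn gave 1 to 2 clock genes that fell, −0.84 to −0.44 for Nr1d1 and 0.31 to 0.65 for Per2, and −0.09 to 0.21 for the change of Arntl minus that of Npas2. That difference was −0.02 with quantile normalization and with cyclic loess and 0.00 without C26 replicate 4, which turned its sign. Of the 23 other pathway genes called, 15 kept their calls in all 16 alternatives; Myod1, Pdk4 and Crtc2 lost theirs with unequal variances, Ciart and Wdr5 with the replicate block. Leaving out control replicate 3 and C26 replicate 1 together, chosen after seeing the data, gave 0.67 for Per2, which then passed.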

Other observations

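Of the other pathway genes, Ucp3, Pdk4, Wee1 and Sik1 were those whose distance of control replicate 3 from the other control pools was above the 95th percentile of all probe sets in size. Ucp3, the mitochondrial uncoupling protein gene of muscle, was at 8.37, 8.35 and 9.20 in control replicates 1, 2 and 3 and at 9.33, 9.21 and 9.26 in C26 replicates 1, 3 and 4. Pdk4 was at 10.55, 10.60 and 11.34 in control pools and at 12.31, 12.15 and 12.08 in C26 pools. Wee1, at 6.66, 6.70 and 7.17 in control pools, was also highest in replicate 3, whereas its C26 values were 6.05, 6.28 and 6.17. Sik1 was at 7.66, 7.55 and 8.03 in control pools and at 9.32, 9.57 and 9.70 in C26 pools. For Ucp3 this pool sat 0.01 below the lowest C26 pool, for Pdk4 and Sik1 it was the control pool nearest to the C26 pools, and for Wee1 it lay on the far side from the C26 pools.

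By the same measure C26 replicate 1 stood apart from the other C26 pools for Ppargc1a, Ciart, Dbp, Myod1 and Ppara. Ppargc1a, a coactivator of ROR receptors and of mitochondrial biogenesis, was at 7.07 in this pool and at 8.37 and 8.21 in replicates 3 and 4, with control pools at 7.13, 7.09 and 6.87. Ciart was at 6.17 in replicate 1 and at 6.87 and 6.99 in the other C26 pools, with control pools at 5.96, 5.62 and 5.81. Dbp was at 6.28 in replicate 1 against 5.35 and 5.62. Myod1 was at 6.18 in replicate 1 against 6.63 and 6.83, with control pools at 8.00, 8.15 and 8.09, and Ppara, a nuclear receptor of fatty acid use, was at 5.50 against 6.00 and 6.00, with control pools at 5.88, 5.88 and 5.82. Replicate 1 was thus the C26 pool nearest to the control mean for Ppargc1a, Ciart and Dbp and the farthest from it for Myod1 and Ppara.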
